A study of Mus musculus with 2 samples.

Results

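Gzmk-positive CD8 T cells are the splenic CD8 T cells in which at least 1 transcript of granzyme K was read. They were chosen cell by cell in both libraries of the series. Droplet barcodes needed 200 or more detected genes, and mitochondrial genes had to give under 10% of the UMIs (counted transcript molecules). A CD8 T cell had at least 1 UMI of Cd8a or Cd8b1 and at least 1 of Cd3d, Cd3e or Cd3g, and it was Gzmk-positive with at least 1 UMI of Gzmk. That gave 243 Gzmk-positive cells among 19416 CD8 T cells, from 21623 barcodes in all. Gzmk chose these cells, so its own level is a description.

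The cells came from wild-type C57BL/6 mice. The CTRL group was injected under the skin with 20 µL of sesame oil each day for 21 days. The DHEA group received dehydroepiandrosterone, an androgen precursor, at 40 mg/kg in the same volume of oil on the same schedule, which serves as a mouse model of polycystic ovary syndrome. CD8 T cells were isolated from spleen with magnetic beads and pooled, and each group has 1 droplet library. How many animals were pooled, and their age and sex, the labels do not say. With 1 library per group nothing below has a replicate check and no test was run. DHEA, the pool of animals and the library cannot be told apart.

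Granzymes are serine proteases that cytotoxic lymphocytes store in granules and release together with perforin, which opens the way into a target cell. Granzyme B cleaves after aspartate and can start the caspase cascade, while granzymes A and K are tryptases that cleave after basic residues. In mouse CD8 T cells Gzma and Gzmb are known from effector cells, and Gzmk from memory cells that carry the chemokine Ccl5 and the receptor Cxcr3, and from a PD-1-positive population that accumulates with age and chronic stimulation.

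The promoters of the 3 granzyme genes that divide these cells are shown because T-box factors (Eomes and Tbx21, whose levels are given below) and Runx factors regulate cytotoxic genes. They run from 250 bases before to 50 bases after the start site, 5′ to 3′ on the gene's strand, from RefSeq (GRCm38.p6, an earlier build than the mm39 named in the submitters' processing notes). Gzmk (chr13:113180916-113181215) and Gzma (chr13:113100932-113101231) lie on the minus strand of chromosome 13 and Gzmb (chr14:56262285-56262584) on the minus strand of chromosome 14. Capitals mark the T-box letters GGTGTGA.
Gzmk: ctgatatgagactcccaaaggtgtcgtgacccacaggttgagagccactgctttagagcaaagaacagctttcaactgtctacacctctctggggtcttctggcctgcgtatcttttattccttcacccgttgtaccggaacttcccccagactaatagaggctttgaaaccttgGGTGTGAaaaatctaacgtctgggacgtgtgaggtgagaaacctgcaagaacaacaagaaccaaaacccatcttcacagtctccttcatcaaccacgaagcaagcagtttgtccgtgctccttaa
Gzma: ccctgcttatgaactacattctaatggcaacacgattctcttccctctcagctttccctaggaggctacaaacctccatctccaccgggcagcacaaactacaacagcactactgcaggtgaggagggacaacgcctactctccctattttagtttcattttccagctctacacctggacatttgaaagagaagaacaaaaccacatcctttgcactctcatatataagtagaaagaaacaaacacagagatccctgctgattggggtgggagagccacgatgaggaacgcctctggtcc
Gzmb: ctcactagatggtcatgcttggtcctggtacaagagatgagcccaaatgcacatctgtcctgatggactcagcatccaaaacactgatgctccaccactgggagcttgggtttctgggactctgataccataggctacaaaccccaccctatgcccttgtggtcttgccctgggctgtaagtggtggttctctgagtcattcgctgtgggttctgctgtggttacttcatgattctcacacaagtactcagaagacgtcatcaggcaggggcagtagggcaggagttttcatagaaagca
The letters GGTGTGA, searched on both strands, were found once in the Gzmk promoter, 75 bases before the start site, and 0 times in the other two. They occur in 1307 of 32851 promoters of this length (3.98%). The Runx core TGTGGT, searched in the same way, was found 0 times in the Gzmk promoter, 1 time in Gzma and 2 times in Gzmb, and it occurs in 5506 promoters (16.8%). These are matches of letters, and binding was not measured.

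The CTRL matrix held 9495 barcodes and the DHEA matrix 12128, of which 8717 and 10699 were CD8 T cells, with median depths of 5615 and 4483 UMIs. Gzmk-positive cells had medians of 6240.5 (range 1943 to 12025) and 4643 UMIs (559 to 45825). In DHEA, 6 of them were above 20000 UMIs and 31 were among the deepest 5% of that library's kept barcodes, against 0 and 2 in CTRL. The 2 libraries had 51 barcodes in common, 1 of them a Gzmk-positive DHEA cell; without them the Gzmk-positive shares were 0.346% and 1.99%. All intervals below are exact 95% intervals. They cover counting error only and neither the variation between cells nor that between animals, so the number of cells that carry a gene is given where UMIs are few.

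Gzmk-positive cells were rare in CTRL and more frequent in DHEA. They were 30 of 8717 CD8 T cells in CTRL (0.344%, 0.232 to 0.491) and 213 of 10699 in DHEA (1.99%, 1.73 to 2.27). The share was 5.78 times higher in DHEA (3.94 to 8.79). CTRL was the deeper library. With each cell thinned to 1000 UMIs, 6 of 8709 (0.0689%) and 73 of 10562 (0.691%) had a Gzmk UMI. Free RNA in the droplets can give a low share in every cell type, and its level was not measured. For comparison, a naive gate was set. Its cells had a UMI of each of a pair of naive markers, Ccr7 among them, and none of Ccl5. There Gzmk was seen in 0 of 3220 CTRL cells, which allows up to 0.0932%, and in 4 of 2645 DHEA cells (0.151%, 0.0412 to 0.387), at median depths of 5898 and 5284 UMIs. Both CD8 T cell shares were above those of the naive gate. Most Gzmk-positive cells carried Ccl5 (given below), so this gate also leaves out droplets that caught free Ccl5 along with Gzmk. Its shares can therefore lie below the free-RNA level.

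Most of these cells held a single Gzmk molecule. In CTRL, 22 of 30 had exactly 1 Gzmk UMI and the highest had 5; in DHEA, 121 of 213 had 1 and the highest had 17. Cells with 2 or more numbered 8 (0.0918% of CD8 T cells) and 92 (0.860%), a ratio of 9.37 (4.56 to 22.4). Cells just inside the threshold and those further in are described by Ccl5, a chemokine that attracts T cells, and by marker sums. The Ccl5 level (CPM, UMIs per 1000000 UMIs summed over the cells of a class) was 11471 in CTRL and 11521 in DHEA cells with 1 Gzmk UMI, and 12275 and 14474 in those with 2 or more. In CD8 T cells with 0 Gzmk UMIs it was 686 and 1402. In DHEA the summed effector markers were at 1598 CPM in cells with 1 Gzmk UMI and 3355 CPM in those with 2 or more, proliferation markers at 286 and 1481 CPM, and naive markers at 1120 and 594 CPM. In CTRL the same sums were 380 and 471, 28.6 and 0, and 1139 and 1311 CPM. Just outside the CD8 T gate, 3 of 493 CTRL and 7 of 972 DHEA barcodes had a Gzmk UMI. In CTRL that share lay above the 0.344% inside the gate, and in DHEA below the 1.99% inside. It rests on few barcodes, and which cells they hold was not examined.

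**Figure D1:**
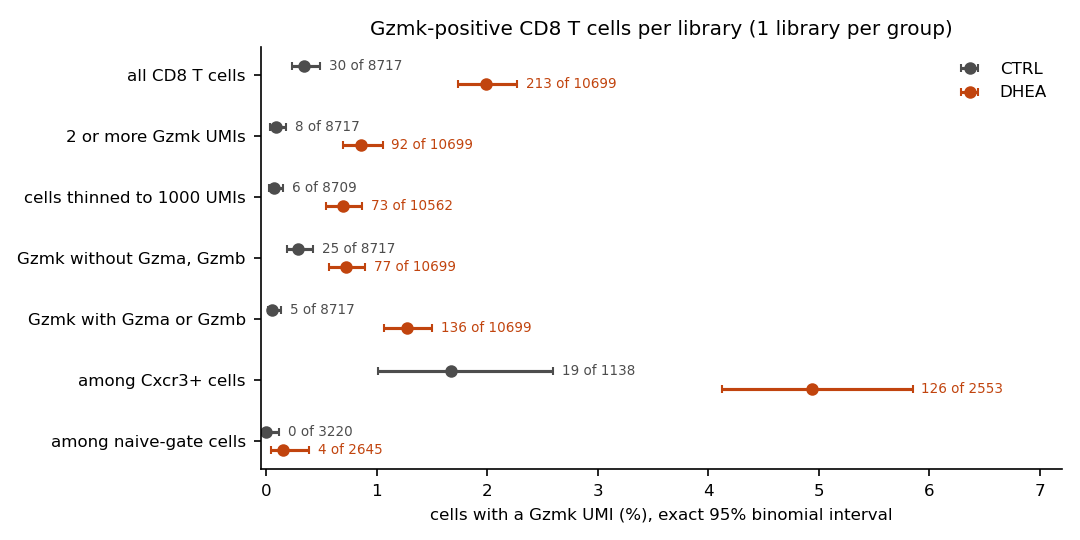
Share of cells with a Gzmk UMI in percent (x axis) under 7 definitions (y axis), with exact binomial 95% intervals for the CTRL (grey) and DHEA (orange) library. DHEA lies to the right of CTRL in each row, and of the rows with Gzmk-positive cells in both libraries the ratio is highest for those with Gzma or Gzmb (5 of 8717 and 136 of 10699).

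The markers proposed for these cells held in part. Ccl5 was carried by 29 of 30 CTRL and 201 of 213 DHEA cells, at 11679 and 13169 CPM against 686 and 1402 CPM in all other CD8 T cells. The log2 ratios were 4.09 (4.03 to 4.15) and 3.23 (3.21 to 3.26). Cxcr3, the receptor for interferon-induced chemokines, was carried by 19 and 126 cells, at 180 and 273 CPM against 36.4 and 82.9. Its log2 ratios were 2.31 (1.77 to 2.80) and 1.72 (1.55 to 1.88). Seen from the other side, 19 of 1138 Cxcr3-positive CTRL cells (1.67%) and 126 of 2553 in DHEA (4.94%) carried Gzmk. Both markers were thus far above the other CD8 T cells in each library, while a Gzmk UMI was read in a small fraction of the Cxcr3-positive cells.

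Eomes, the T-box factor of memory CD8 T cells, was at 122 CPM in 15 CTRL cells and 81.4 CPM in 61 DHEA cells, against 29.4 and 49.6 CPM in the others. Its log2 ratio was 2.05 (1.39 to 2.64) in CTRL and 0.72 (0.41 to 1.00) in DHEA. The exhaustion factor Tox, at 175 and 159 CPM, did not stand out from the others at 213 and 169 CPM (log2 ratios -0.28, -0.82 to 0.21, and -0.09, -0.30 to 0.12). Pdcd1, which encodes the inhibitory receptor PD-1, gave 2 UMIs in 2 CTRL cells and 38 UMIs in 27 DHEA cells. That is 10.6 and 30.6 CPM against 0.856 and 1.02 CPM in the others. A Pdcd1 UMI was thus read in 2 of 30 and 27 of 213 cells (6.67% and 12.7%), and 17 of those 27 also had a Tox UMI. The cells are called here by Gzmk alone.

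The identity as CD8 T cells was checked on markers of other lineages. Cd4 and Foxp3 were at 0 in Gzmk-positive cells of both libraries, as were Cd79a, Ms4a1 and Jchain of B lineage cells, Csf1r, S100a8 and S100a9 of myeloid cells, and Ncr1 and Zbtb16 of natural killer (NK) and NKT cells. A zero tells little for a gene that is rare in all CD8 T cells. Ncr1 was at 0 in all DHEA CD8 T cells, and 4 CD4 and regulatory T cell markers gave 99 and 105 UMIs over all CD8 T cells. The 4 CD4 and regulatory T cell markers had UMIs in 1 of 30 and 4 of 213 cells. Their summed level was 5.31 and 3.22 CPM against 2.00 and 2.07 CPM in other CD8 T cells. The other NK and NKT markers had UMIs in 4 of 30 and 41 of 213 cells, with a summed level over all 6 of 31.8 and 102 CPM against 23.6 and 39.2 CPM in other CD8 T cells. The 7 myeloid markers had UMIs in 12 of 30 and 74 of 213 cells, at a summed 101 and 101 CPM against 63.6 and 75.2 CPM in other CD8 T cells. The 6 B and plasma cell markers had UMIs in 15 and 96 cells, at 122 and 160 CPM against 267 and 290 CPM. A UMI of Trbc1 or Trbc2, constant parts of the T cell receptor beta chain, was present in 29 and 210 cells. The 4 gamma delta T cell markers had UMIs in 1 CTRL cell (3.33%) and 18 DHEA cells (8.45%), against 4.17% and 3.97% of other CD8 T cells, at 15.9 and 42.7 CPM against 17.9 and 18.8 CPM. In the longer gamma delta list 2 of 5 measured genes were called higher in DHEA by the rule given below, beside 6.05% of all genes. The part of these other-lineage transcripts in the results was not tested. Beta chain V segments were read in 31 DHEA cells and fell on 12 segments, with Trbv12-2 and Trbv19 leading at 6 cells each. Trbv12-2 also led over all DHEA CD8 T cells with a segment (17.3% of 1500).

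All genes with at least 200 UMIs over all CD8 T cells were then compared between Gzmk-positive and other CD8 T cells within each library. A gene was called where its whole interval lay beyond 1.5-fold, which is a cut on size. Of 10512 genes, without the 3 granzymes that set the classes, 185 (1.76%) were called higher and 36 (0.342%) lower in CTRL. In DHEA 636 (6.05%) were called higher and 227 (2.16%) lower. Counts for gene lists against other CD8 T cells, given below, stand beside these shares of all genes. The DHEA class holds more UMIs and has narrower intervals, so the counts are not comparable between the libraries. Called in both libraries were 102 genes higher and 27 lower, and 0 genes were called in opposite directions. Of the CTRL calls, 160 of 185 higher and 35 of 36 lower genes had the same sign in DHEA. The median log2 ratio over all genes was 0.11 in CTRL and 0.04 in DHEA, and ribosomal protein UMIs made up a median of 29.1% and 23.0% of a Gzmk-positive cell against 33.8% and 34.5% of other cells. With TMM scaling, which centres the ratios on the bulk of genes, 139 higher and 61 lower genes were called in CTRL and 481 and 377 in DHEA.

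**Figure D2:**
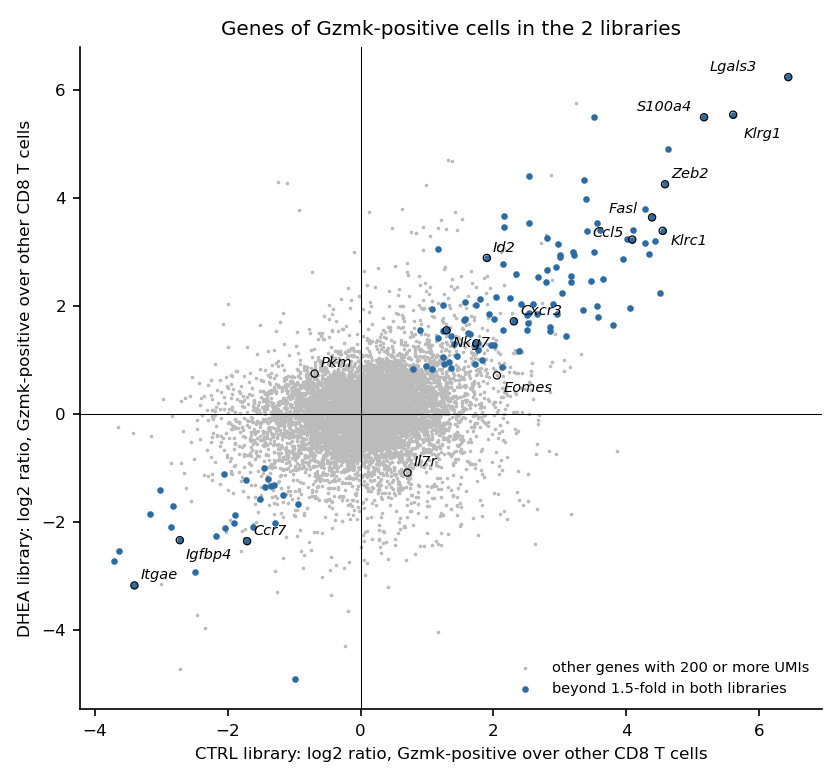
Log2 ratio of Gzmk-positive over other CD8 T cells in CTRL (x axis) and DHEA (y axis), 1 point per gene with at least 200 UMIs and a ratio in both libraries; blue points were called in both. Lgals3, S100a4, Klrg1 and Zeb2 lie at the upper right and Ccr7, Igfbp4 and Itgae at the lower left, while Il7r lies above 0 in CTRL and below 0 in DHEA.

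Among granule proteins, 6 of 11 measured genes in CTRL and 7 of 11 in DHEA were called higher and 0 lower, with median log2 ratios of 1.29 and 1.31. Prf1, which encodes the pore-forming perforin, was at 149 and 142 CPM against 45.0 and 57.2. Nkg7, a membrane protein of cytotoxic granules needed for their release, was at 1364 and 1912 CPM against 556 and 653. Both were called higher in each library (Prf1 1.72 and 1.31, Nkg7 1.29 and 1.55). Gzmm, another granzyme gene, was at 127 and 77.4 CPM against 17.6 and 41.9. It was called in CTRL (2.85, 2.20 to 3.44) and its DHEA interval reached below 1.5-fold (0.89, 0.57 to 1.18). Serpinb9, the inhibitor that shields lymphocytes from granzyme B, gave 4 UMIs in CTRL and 95 UMIs in 47 cells in DHEA, where it was called higher (2.69).

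Of the chemokines 2 of 4 with a ratio in CTRL and 3 of 5 in DHEA were called higher and 0 lower (medians 1.93 and 2.24). Of the death ligands and effector cytokines 2 of 7, Ifng and Fasl, were called higher in each library and 0 lower, with medians of 0.16 and 0.16. Ccl4, an inflammatory chemokine, was at 202 and 308 CPM against 24.6 and 65.2 (log2 ratios 3.04 and 2.24). Ifng, the main effector cytokine, was at 58.4 and 79.0 CPM against 8.38 and 12.4 (2.80 and 2.68). Fasl, which triggers death through Fas, gave 7 UMIs in 4 CTRL cells and 59 UMIs in 43 DHEA cells (4.39 and 3.64). All 3 were called higher in both libraries, whereas Ccl3 was called in DHEA alone, with 1 UMI in CTRL and 74 UMIs in 36 cells in DHEA. Among 9 measured chemokine receptors, 4 were called higher and 2 lower in CTRL, and 5 and 2 in DHEA. Ccr2, a receptor for inflammatory chemokines, was higher in both (4.10 and 3.42). Cxcr6, the receptor for Cxcl16, was called in DHEA (0.90 in CTRL, 1.96 in DHEA). The lymph node receptor Ccr7 was lower in both.

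Transcription factors of effector and memory cells were called higher in 11 of 18 genes with a ratio in CTRL and 11 of 19 in DHEA. In each library 0 were called lower. Tbx21, which encodes T-bet, was at 79.6 CPM in 11 CTRL cells and 198 CPM in 109 DHEA cells, against 26.8 and 47.0 (1.57 and 2.07). Id2, the antagonist of E proteins that favours effector cells, was at 398 and 747 CPM against 107 and 101 (1.90 and 2.89). Zeb2, a partner of T-bet in terminal differentiation, was carried by 26.7% of CTRL and 33.3% of DHEA cells against 0.990% and 1.64% of the others (4.58 and 4.26). Bhlhe40, a regulator of effector cytokines and metabolism, also stood higher in both (3.39 and 3.99), with 5 UMIs in CTRL. An Eomes or Tbx21 UMI was found in 21 of 30 and 136 of 213 cells.

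The terminal effector list held 15 called higher of 18 with a ratio in CTRL and 18 of 19 in DHEA, with 0 lower and medians of 2.54 and 3.17. S100a4, a calcium-binding protein of migratory effector cells, was at 239 and 722 CPM against 6.63 and 16.0 (5.17 and 5.50). Klrg1, the lectin-like receptor of terminal effector cells, gave 3 UMIs in 2 CTRL cells and 172 UMIs in 65 DHEA cells, and Cx3cr1, the fractalkine receptor, 3 UMIs in 2 and 148 in 61. The list's values in CTRL therefore rest on few cells for these genes. Lgals3, a galectin, had all its 19 CTRL UMIs in 2 cells, and S1pr5, an egress receptor, had 0 in CTRL and 71 UMIs in DHEA. In CTRL, a UMI of Klrg1, Cx3cr1, S1pr5 or Zeb2 was in 4 of the 5 cells with Gzma or Gzmb and 4 of the 25 without. In those 25 cells, 10 of 15 list genes with a ratio were called higher and 0 lower (median 1.82), beside 1.5% of all genes called higher.

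Memory genes were called higher in 17 of 27 in CTRL with 1 lower, and in 13 of 27 in DHEA with 4 lower. Ly6c2, a surface protein of memory CD8 T cells, was at 1284 and 969 CPM against 292 and 530 (2.13 and 0.87). The NK receptor genes Klrc1 (4.55 and 3.39) and Klrk1 (4.28 and 3.17), which memory CD8 T cells also use, were higher in both. Cd44, an adhesion receptor gained on activation (1.58 and 0.74), and Il2rb, the receptor chain for interleukins 2 and 15 (1.30 and 0.34), were called in CTRL only. That difference between the libraries was not tested, and in the other CD8 T cells, the denominator, Ly6c2 was higher in DHEA than in CTRL by 0.86 on the log2 scale.

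Naive and stemness genes were called lower in 7 of 21 in CTRL and 15 of 21 in DHEA, with 0 higher. Ccr7 was at 69.0 and 51.6 CPM against 225 and 264 (-1.71 and -2.36), and Igfbp4, an insulin-like growth factor binding protein of naive T cells, was lower in both (-2.72 and -2.34). A Ccr7 UMI was still present in 10 of 30 CTRL and 37 of 213 DHEA cells. Itgae, the integrin chain CD103, gave 1 UMI in CTRL and 5 UMIs in DHEA and was called lower in both.

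Of 24 T cell receptor signalling genes the kinase gene Fyn was called higher in both libraries (0.98 and 0.90) and Dgka, a kinase that dampens the signal, lower in DHEA, and the medians were 0.19 and 0.08. The type I interferon list had medians of 0.04 and 0.00, with 0 calls in CTRL and 3 higher and 1 lower of 39 in DHEA. In the inhibitory receptor and exhaustion list, 1 of 15 with a ratio was called in CTRL and 5 of 17 in DHEA, all higher. Beside them, 1.76% and 6.05% of all genes were called higher, and the list medians were 0.31 and 0.25. Rgs1, a regulator of G protein signalling, was called in both (2.95 and 1.86), and the inhibitory receptors Tigit and Cd160, the ectoenzyme Cd38 and the nuclear receptor Nr4a2 in DHEA. Of the 3 measured steroid receptors 0 were called.

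Gzma or Gzmb was detected alongside Gzmk in a larger share of cells in DHEA. It was in 5 of 30 CTRL cells (16.7%, 5.64 to 34.7) and in 136 of 213 DHEA cells (63.8%, 57.0 to 70.3). Among other CD8 T cells it was in 97 of 8687 (1.12%) and 337 of 10486 (3.21%), and in the naive gate in 0.590% and 1.85%. When each cell was thinned to 1000 UMIs, 1 of 30 and 99 of 206 Gzmk-positive cells had such a UMI (3.33% and 48.1%), against 0.242% and 1.32% of the others. In DHEA, 95 cells carried Gzma, 109 Gzmb and 68 both. Of cells with Gzma or Gzmb, 5 of 102 in CTRL (4.90%) and 136 of 473 in DHEA (28.8%) also carried Gzmk.

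Split this way, both kinds of Gzmk-positive cell took a larger share in DHEA. Cells without Gzma and Gzmb were 25 (0.287%) and 77 (0.720%), a ratio of 2.51 (1.58 to 4.11). Cells with either were 5 (0.0574%) and 136 (1.27%), a ratio of 22.2 (9.27 to 69.3). For comparison, cells with Gzma or Gzmb and no Gzmk were 97 and 337, a ratio of 2.83 (2.25 to 3.59). These intervals cover counting error in cells and not the variation between animals, and whether the ratios differ between the classes was not tested.

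The next comparison set Gzmk-positive cells against the 97 and 337 Gzma or Gzmb cells in which no Gzmk UMI was read. Transcripts can be missed: thinned to 1000 UMIs, the Gzmk share fell from 0.344% to 0.0689% in CTRL and from 1.99% to 0.691% in DHEA. Cells said to be without a granzyme are, throughout, cells with no UMI of it, and some may express it. In CTRL 76 genes (0.723%) were called higher and 41 (0.39%) lower, and in DHEA 198 (1.88%) and 104 (0.989%). Many of these Gzma or Gzmb cells held a single UMI, and the naive gate's share of 1.85% in DHEA stands beside 3.21% of all other CD8 T cells. Cells with 2 or more UMIs of Gzma or Gzmb were 20 in CTRL and 119 in DHEA. Against these, 36 of the same 10512 genes were higher and 68 lower in CTRL, and 40 and 37 in DHEA. List counts under this stricter rule, given below, stand beside these counts over all genes. The genes and lists of the next paragraphs are given against both definitions where this was computed.

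Cxcr3 kept its call in DHEA: it was at 273 CPM against 110 CPM in Gzma or Gzmb cells, a log2 ratio of 1.31 (1.04 to 1.57), and 1.03 (0.66 to 1.42) against those with 2 or more UMIs. In CTRL, Cxcr3 was at 180 and 85.8 CPM (1.07, 0.42 to 1.71, and 0.45, -0.39 to 1.32), not called. Lgals3 was called higher in DHEA against both (2.24, and 1.14, 0.72 to 1.60). More Cxcr3 and more Lgals3 thus held in DHEA under either definition, over all Gzmk-positive cells, of which 136 of 213 carry Gzma or Gzmb themselves. In the 77 cells without them, Cxcr3 was not called under the stricter rule (0.71, 0.23 to 1.19). Against all Gzma or Gzmb cells, the terminal effector list, which holds Lgals3, had 0 of 19 called higher and 3 lower there (median -0.17).

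Other differences depended on the definition. Ccl5 was at 13169 against 6420 CPM in DHEA (1.04, 1.00 to 1.07), but at -0.04 (-0.08 to 0.00) against the cells with 2 or more UMIs. In CTRL, Ccl5 was at 11679 against 3147 CPM (1.89) and stayed called under the stricter rule (1.26, 1.13 to 1.38). Id2 was at 747 against 300 CPM in DHEA (1.32, and 0.38 under the stricter rule), and Nkg7 (0.80 and 0.20), S100a4 (1.85 and 0.78), Klrc1 (1.01 and -0.09) and Ccr2 (1.89 and 1.08) also lost their calls there. Zeb2 was at 229 and 222 CPM (0.04, -0.19 to 0.27) and was called lower in Gzmk-positive cells under the stricter rule (-1.21, -1.45 to -0.97). Klrg1 (0.90 and -0.57) and Tbx21 (0.33 and -0.52) changed sign in DHEA without a call, and Eomes (0.09 and -0.07) was not called under either. In CTRL, Tbx21 was called lower under the stricter rule (-1.66, -2.62 to -0.76).

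Of the naive genes, 12 of 21 were called lower in DHEA and 0 higher against all Gzma or Gzmb cells, among them Ccr7 at 51.6 against 172 CPM (-1.74, and -0.60, not called, under the stricter rule). Against the cells with 2 or more UMIs, 1 of 21 was called lower (median -0.40). Klra7, a Ly49 receptor of NK cells and memory-like CD8 T cells, had 0 UMIs in the 213 DHEA cells and 42 UMIs in the Gzma or Gzmb cells, a log2 ratio of -3.41 or lower, and of -3.90 or lower under the stricter rule. In CTRL the type I interferon list was called lower in 8 of 39 and higher in 0 (median -1.05), and in DHEA lower in 2 and higher in 1. Under the stricter rule it was called lower in 14 of 39 in CTRL (median -1.54) and in 0 in DHEA. The CTRL Gzma or Gzmb cells themselves stood above other CD8 T cells in this list, with 19 of 39 called higher (median 1.02). Gzmk-positive CTRL cells had 0 calls against other CD8 T cells (median 0.04).

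Of the cell cycle genes, 28 of 28 were called higher than in other CD8 T cells in DHEA (median 3.42), and 1 of 17 with a ratio in CTRL (median -0.20). Without the cells that carry a proliferation marker, 329 genes of any kind were called higher and 85 lower in DHEA. Against Gzma or Gzmb cells of DHEA, 23 of 28 cell cycle genes were called higher and 0 lower, with a median of 2.11 beside 0.01 over all genes. Against the cells with 2 or more UMIs of Gzma or Gzmb, 11 of 28 were called higher and 0 lower (median 1.17). Birc5, which encodes the mitotic protein survivin, gave 217 UMIs in 30 Gzmk-positive cells and 17 UMIs in 8 Gzma or Gzmb cells (4.07, 3.36 to 4.88, and 2.61, 1.86 to 3.48, under the stricter rule). Cenpf, a kinetochore protein (4.24 and 3.34), Nusap1, a spindle protein (4.08 and 2.93), Ube2c, which tags cyclins for destruction (4.05 and 2.72), and cyclin B2, Ccnb2 (3.81 and 2.71), were called under both. The reads came from few cells. A UMI of Mki67, Top2a, Ube2c, Birc5 or Pclaf was in 57 of 213 DHEA cells (26.8%), and 27 cells had 5 or more such UMIs, of which 25 carried Gzma or Gzmb. In CTRL 4 of 30 cells had any and 0 had 5 or more. The 27 DHEA cells had a median of 8881 UMIs.

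The last reference was the Cxcr3-positive CD8 T cells, those with a Cxcr3 UMI and none of Gzmk, Gzma or Gzmb. Against it 114 genes (1.08%) were called higher and 19 (0.181%) lower in CTRL, and 557 (5.3%) and 173 (1.65%) in DHEA. Ccl5 was at 2157 and 2480 CPM in that pool, and Gzmk-positive cells were higher by 2.44 (2.37 to 2.50) and 2.41 (2.38 to 2.44). Id2 (2.06 and 3.15), Zeb2 (3.95 and 5.90), S100a4 (3.86 and 5.29), Klrk1 (2.60 and 2.37), Ccr2 (2.41 and 2.30), Nkg7 (0.81 and 1.19) and Prf1 (1.32 and 1.02) were called higher in both libraries. Eomes (1.07 and 0.01), Tox (-0.05 and 0.04), Il2rb (-0.02 and -0.42) and Cd44 (0.29 and -0.11) were called in neither. Of the effector list, 12 of 17 in CTRL and 18 of 19 in DHEA were called higher, and of the memory list 8 and 9 of 27 were higher and 1 and 6 lower.

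**Figure D3:**
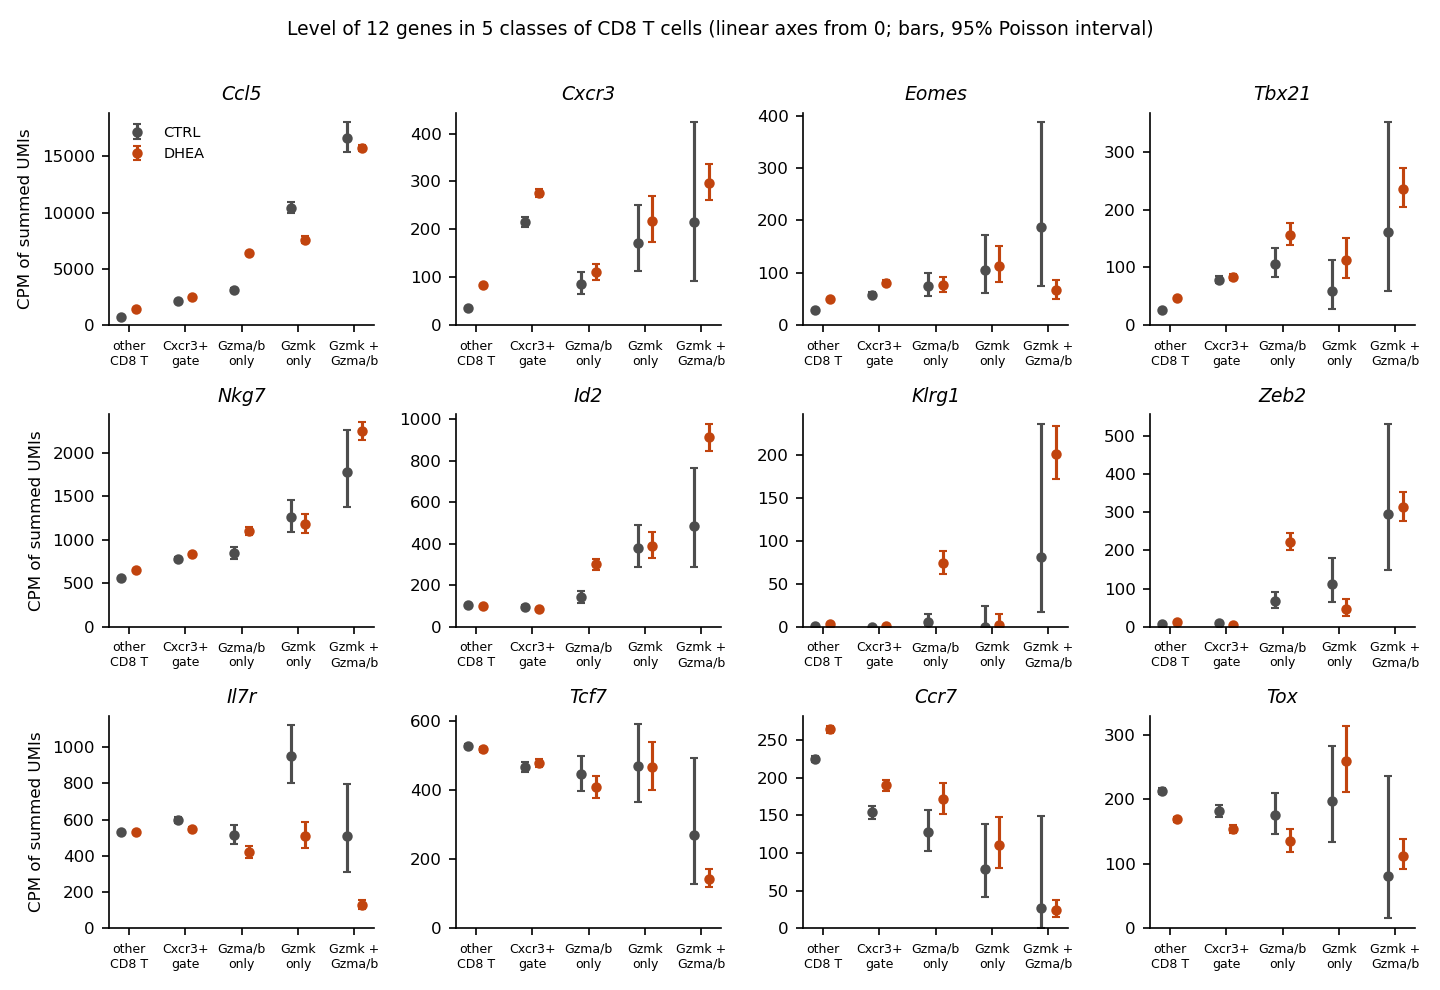
Level (CPM of summed UMIs, y axes, linear from 0) of 12 genes in 5 classes of CD8 T cells (x axes) in CTRL (grey) and DHEA (orange), with exact Poisson 95% intervals. Ccl5 is highest in Gzmk-positive cells that also carry Gzma or Gzmb (16655 CPM in CTRL and 15719 CPM in DHEA for Ccl5), Klrg1 is near 0 in Gzmk cells without them, and Tcf7, Il7r and Ccr7 are low in the DHEA cells with Gzmk and Gzma or Gzmb.

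Within DHEA, Gzmk-positive cells with and without Gzma or Gzmb were compared. Between the 136 and the 77 cells, 190 genes (1.81%) were called higher with Gzma or Gzmb and 145 (1.38%) lower. The cells with them had a median of 4608 UMIs and 20.8% ribosomal protein UMIs, those without 4856 and 27.0%, and all 6 cells over 20000 UMIs were among the first. NK and NKT markers had UMIs in 35 of 136 cells with them (138 CPM) and 6 of 77 without (23.1 CPM), and myeloid markers were at 115 and 69.2 CPM. The part of these in the differences was not tested. Klrg1 had 171 UMIs in 64 cells with them and 1 UMI in 1 cell without. Zeb2 was at 313 and 46.2 CPM (2.76, 2.07 to 3.54), S100a4 at 960 and 205 CPM (2.23, 1.89 to 2.58) and Tbx21 at 236 and 113 CPM (1.07, 0.59 to 1.57). Ccl5 was at 15719 and 7608 CPM (1.05, 0.99 to 1.10), so it was high in both. A UMI of Klrg1, Cx3cr1, S1pr5 or Zeb2 was in 93 of 136 cells with Gzma or Gzmb (68.4%) and 14 of 77 without (18.2%).

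Naive and stemness genes were called lower in the cells with Gzma or Gzmb in 11 of 21 and higher in 0 (median -1.29). The memory list went both ways, with 4 of 27 called higher and 6 lower (median 0.16). Tcf7, the factor of naive and stem-like T cells, was at 143 CPM with and 467 CPM without Gzma or Gzmb (-1.70, -2.04 to -1.36). Il7r, the survival receptor for interleukin 7, was at 131 and 510 CPM (-1.97), and Id3, the memory counterpart of Id2, at 20.0 and 133 CPM (-2.74). Xcl1, a chemokine that attracts dendritic cells, gave 6 UMIs in 4 cells with and 29 UMIs in 16 cells without (-3.40, -4.96 to -2.10). Tox was at 113 and 259 CPM (-1.20), and Pdcd1 was found in 23 of 136 and 4 of 77 cells. Eomes (-0.75, -1.34 to -0.15), Cxcr3 (0.45, 0.09 to 0.82), Gzmm (-0.70, -1.31 to -0.08) and Ifng (0.13, -0.52 to 0.80) were not called. An Il7r or Tcf7 UMI was present in 71 of 136 cells (52.2%) and 67 of 77 (87.0%).

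**Figure D4:**
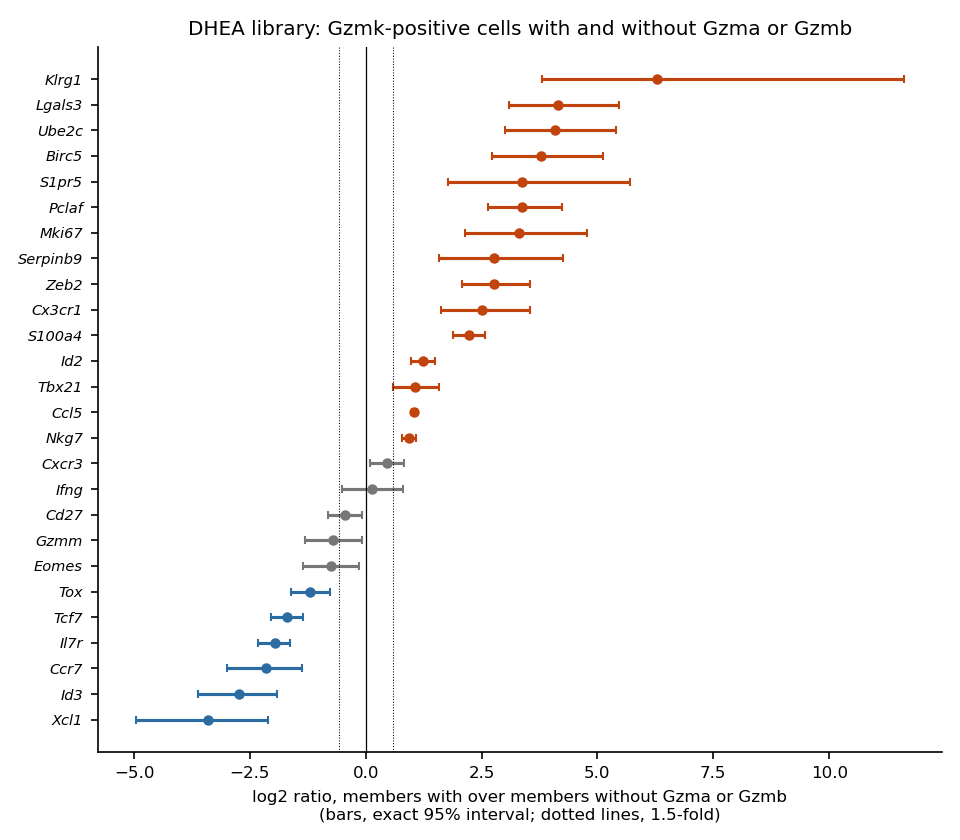
Log2 ratio of DHEA Gzmk-positive cells with Gzma or Gzmb (136 cells) over those without (77 cells) for 26 genes, with exact 95% intervals; dotted lines mark 1.5-fold, and orange, blue and grey genes were called higher, called lower or not called. Klrg1, cell cycle and effector genes lie to the right and Xcl1, Id3, Ccr7 and Il7r to the left.

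The cells without Gzma or Gzmb were also set against other DHEA CD8 T cells. There 183 (1.74%) were called higher and 25 (0.238%) lower (CTRL: 158, 1.5%, and 30, 0.285%), with 13 of 19 terminal effector genes higher and 0 lower. Ccl5 (2.44), Cxcr3 (1.40), Eomes (1.19), Tbx21 (1.26), Id2 (1.95), Ifng (2.59) and Cd38 (3.01), an NAD-consuming ectoenzyme of activated cells, were called higher. Tcf7 (-0.15) and Il7r (-0.06) were not called, and Klrg1 was at -0.21 with 1 UMI. Against the Gzma or Gzmb cells these 77 cells had 28 genes (0.266%) higher and 19 (0.181%) lower (CTRL: 59, 0.561%, and 34, 0.323%), Cxcr3 among the higher (0.98, 0.59 to 1.36) and Zeb2 (-2.27) and Klrg1 (-4.85) among the lower, with 0 of 28 cell cycle genes called. Against those with 2 or more UMIs, Cxcr3 was not called (0.71, 0.23 to 1.19), while Zeb2 (-3.52) and Klrg1 (-6.33) were called lower.

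Gzmk-positive cells of the 2 libraries were last compared with each other. In DHEA 106 genes (1.01%) were called higher than in CTRL and 108 (1.03%) lower. The same comparison in other CD8 T cells gave 69 (0.656%) and 53 (0.504%), and whether the differences between the libraries are unlike in the 2 classes was not tested. Cell cycle genes were called higher in 19 and lower in 0: Stmn1, a microtubule regulator of dividing cells, gave 4 UMIs in CTRL and 517 in DHEA (log2 ratio between 2.93 and 6.18), and Birc5 gave 0 and 217, a log2 ratio of at least 3.46 against 3 UMIs. Klrg1 was higher by 3.12 (1.55 to 5.41) and by 3.19 in other CD8 T cells. Cd48, an adhesion ligand, was at 207 and 634 CPM (1.62), and the glycolytic genes Gapdh (1.18) and Pkm (1.53) were higher too. Of 17 measured glycolysis genes, 2 were called higher and 0 lower (median 0.36). Among cells without Gzma or Gzmb, 0 of the 17 were called (median 0.18). Il7r was at 865 and 250 CPM (-1.79, -2.07 to -1.51), while in other CD8 T cells Il7r differed by 0.00.

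The 4 proposed markers that could be assessed were not called between the libraries. Pdcd1 was under the minimum of 200 UMIs, and Gzmk set the class. Ccl5 (0.17, 0.11 to 0.24), Cxcr3 (0.59, 0.08 to 1.15), Eomes (-0.58, -1.25 to 0.14) and Tox (-0.14, -0.68 to 0.44) all missed the cut, whereas in other CD8 T cells Ccl5 (1.03), Cxcr3 (1.19) and Eomes (0.75) were called higher in DHEA. The mix of cells with and without Gzma or Gzmb differed between the libraries. Among cells without either, 17 genes (0.162%) were called higher in DHEA and 31 (0.295%) lower, with 1 cell cycle gene higher. There Il7r was at 952 and 510 CPM (-0.90, -1.22 to -0.58, not called) and Tcf7 at 469 and 467 CPM (-0.01).

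The genes with the lowest ratios were set by a handful of UMIs. Ifngr2, a chain of the interferon gamma receptor, gave 0 UMIs in CTRL and 1 UMI in DHEA Gzmk-positive cells against 1540 and 1185 UMIs in other CD8 T cells, and was called lower in both (a bound of -0.98, and -4.91, -10.2 to -2.43). Igf1r, the receptor for insulin-like growth factor 1, gave 1 and 1 UMI (-2.72, not called, and -4.73). Hspa1a, an inducible heat shock protein, was at 21.2 and 36.3 CPM, against 23.8 and 87.6 CPM in others. In those others it was higher in DHEA by 1.88 (1.79 to 1.98), and in the Gzmk-positive cells the ratio was 0.77 (-0.68 to 2.71).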

How the data were processed

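The droplet libraries used 10x Genomics 3' chemistry, per the labels. What was deposited are raw counts of UMIs for each gene in each barcode, and per the file headers Cell Ranger 8.0.1 wrote them. Seurat 4.3.0 and mm39 appear in the submitters' processing notes with no stated role. The alignment settings, and whether the authors filtered barcodes, are not stated there. No doublet caller was run; an alternative left out cells with a UMI of another lineage's marker and the deepest 5%.

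For each class of cells in a library, UMIs were added up per gene and scaled to the class total (CPM). Intervals at 95% are exact: binomial for log2 ratios, Poisson for CPM and Clopper-Pearson for shares. A class at 0 UMIs was put at 3 UMIs, as a bound. Genes with at least 200 UMIs over all CD8 T cells were measured, and those whose interval lay beyond 1.5-fold were called. Calls were also made with edgeR's TMM factors, other minima, thinned cells, other definitions of the classes and a plain fold rule. The steps were tested on simulated counts with 200 changed genes. Those counts varied by counting error only, so the test cannot show how calls behave where few cells supply most UMIs. Tools were Python 3.11.15, numpy 2.4.6, scipy 1.17.1, pandas 2.3.3, matplotlib 3.10.9, R 4.3.3 and edgeR 4.0.16 (for TMM only).

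The cells, gene lists and comparisons were chosen with earlier results of these data known. Named genes were the proposed markers, those with the highest and lowest called ratios in DHEA or between the libraries, up to 3 members of each list and a fixed panel of granzyme, effector, memory and inhibitory genes. Immunoglobulin, T cell receptor, mitochondrial, ribosomal protein and unnamed genes were left out of the extremes. Outside that rule, Xcl1, Pkm, Hspd1, Junb and Vsir were named after their values were seen. Some genes that entered the fits and classes are not reported here.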

Additional observations from a re-analysis of the deposited data

Results flagged for a closer look

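For 5 genes the log2 ratio of Gzmk-positive over other CD8 T cells had an interval above 0 in one library and below 0 in the other. Only measured genes of the lists, the cell type markers and the named genes were searched, and not all 10512 genes. The difference between the libraries was not tested, and each library is 1 pool. Il7r was at 0.71 in CTRL and -1.09 in DHEA, and at 0.84 and -0.06 among cells without Gzma or Gzmb. Pkm, a glycolytic enzyme, was at -0.69 and 0.75, with 18 UMIs in CTRL. Hspd1, a mitochondrial chaperone, was at -1.21 and 0.24, with 9 UMIs in CTRL. Vsir, which encodes the inhibitory receptor VISTA, was at -1.02 and 0.37. Junb, a subunit of the AP-1 factor, was at 0.30 and -0.21.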

How the results depend on the processing

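Every value rests on 1 library per group, so counting error is the one error known, and 30 CTRL cells limit that side. No paired analysis was possible because each group has 1 library. Of 139 recomputed shares and counts, 59 stayed within their interval or within 1.5 times and 80 moved; of the gene ratios, 729 stayed, 356 moved and 5 reversed. The cause was not tested, except that fewer cells, genes or UMIs enter where so stated. Counts below are genes higher and lower.

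The Gzmk share was above CTRL in DHEA under each of the cell definitions run. Thinned to 1000 UMIs it was 0.0689% and 0.691% (ratio 10.0), with Gzma or Gzmb in 0% and 50.7% of those cells; at 2000 UMIs 0.13% and 1.31% (10.1), with 56.0% in DHEA. With at least 2 Gzmk UMIs it was 0.0918% and 0.860% (9.37), with 77.2% in DHEA. Without cells carrying another lineage's marker and the deepest 5%, 8 and 57 Gzmk-positive cells were left, and Gzma or Gzmb was in 0% of the CTRL ones. As Ighm UMIs lay in most cells, the same was done without Ighm and haemoglobin, chosen after seeing the data: 14 and 93 cells were left, again with 0% in CTRL, and the DHEA values were 1.44% and 52.7%. Without cells with a proliferation marker, also chosen after seeing the data, 26 and 156 were left, and the DHEA share was 1.54%.

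Against other CD8 T cells the counts were 102 and 5 (CTRL) and 281 and 56 (DHEA) with thinned cells, which hold fewer UMIs. They were 96 and 3, and 328 and 73, without other-lineage and deepest cells, and with Ighm and haemoglobin not counted 10 lower in CTRL and 314 and 56 in DHEA. Without proliferating cells DHEA had 329 and 85, and with cells lacking Gzma and Gzmb alone 183 and 25. At least 1000 UMIs per gene gave 119 and 403 higher, no minimum 304 and 989. TMM gave 61 and 377 lower, and a plain 2-fold rule 1031 and 696 in CTRL and 824 lower in DHEA.

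Against Gzma or Gzmb cells they were 13 and 3 (CTRL) and 49 and 19 (DHEA) with thinned cells, 14 and 7, and 43 and 19, without other-lineage and deepest cells, and with Ighm and haemoglobin not counted 21 lower in CTRL and 75 and 32 in DHEA. DHEA had 92 and 48 without proliferating cells and 28 and 19 with cells lacking Gzma and Gzmb. At least 1000 UMIs per gene gave 50 and 107 higher, TMM 49 higher in CTRL, and the 2-fold rule 731 and 793, and 541 and 699. With Gzma or Gzmb cells of at least 2 UMIs, chosen after seeing the data, they were 36 and 68, and 40 and 37.

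Between the libraries, within Gzmk-positive cells, they were 8 and 38 with thinned cells, 24 and 50 without other-lineage and deepest cells (23 and 55 with Ighm and haemoglobin not counted), 29 and 69 without proliferating cells, 17 and 31 among cells lacking Gzma and Gzmb, and 1015 and 878 by the 2-fold rule. In DHEA cells lacking Gzma and Gzmb, the ratios over other CD8 T cells reversed for Klre1 (-0.67), Klrg1 (-0.21) and Tpi1 (-0.29), and for Ccna2 over Gzma or Gzmb cells (-0.26). Tpi1 also reversed without proliferating cells (-0.26).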
